A study of Homo sapiens with 6 samples.

Results

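Matrix metalloproteinase (MMP) genes were described in RKO cells, an established human colorectal carcinoma line with a wild-type label, kept for 48 h in one of 2 media. Glucose was at 4.5 g/L and fetal bovine serum at 10% in control medium (3 libraries). In fasting medium glucose was at 1 g/L and serum at 1% (3 libraries). The series text also names drug arms, which were not analysed here. The members are all rows of the deposited gene table whose gene name is MMP followed by a number, 6 of 3511 rows. They are MMP1 (ENSG00000196611), MMP10 (ENSG00000166670), MMP3 (ENSG00000149968), MMP19 (ENSG00000123342), MMP14 (ENSG00000157227) and MMP15 (ENSG00000102996). All 6 had a mean of at least 1 normalized count in one group, the minimum used for tests. The table lists only genes that the authors had called between these media, so the members were selected on the same 6 libraries, and MMP1 and MMP10 stand first for their large difference. Their values describe that comparison and were given no test. The highest adjusted p that the authors' deposited table lists is 0.04999, and no value is at hand for a gene beyond it.

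Matrix metalloproteinases are zinc-dependent enzymes that cut collagens, laminins, proteoglycans and other proteins of the extracellular matrix. Most are secreted, while membrane-type MMPs stay anchored at the cell surface. They are made as inactive precursors, in which a cysteine in the propeptide blocks the zinc. Other proteases free the active enzyme, and tissue inhibitors of metalloproteinases (TIMPs) hold it in check. In colorectal tumours MMPs are best known for matrix breakdown at the invading edge.

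Of 23 family symbols looked for, 6 were listed, or 26.1%, against 11.8% of the 29845 genes that the authors tested. The other 17, among them MMP2, MMP7, MMP9 and MMP13, were not listed and have no value here. MMP10, MMP1 and MMP3 lie on chromosome 11, MMP19 on 12, MMP14 on 14 and MMP15 on 16. On chromosome 11, per RefSeq's gene order, 9 protein-coding genes run without interruption from MMP7 to MMP13, all of them MMP genes. The 3 listed ones follow one another in the middle of that run, in the order MMP10, MMP1, MMP3. Their protein-coding neighbours MMP27 and MMP8 on one side and MMP12 on the other were not listed, nor were the pseudogenes WTAPP1, CSNK1A1P2 and LOC100421658 and the long noncoding RNA gene LOC124902741 that lie among them. Neighbours were matched by symbol, so a gene listed under another name would be missed, as LOC100421658 and LOC124902741 may have been. Of the 3 nearest genes on each side of the members elsewhere, ORMDL2 beside MMP19, OXA1L and RBM23 beside MMP14 and CFAP20 beside MMP15 were listed. In GENCODE annotation WTAPP1 overlaps all 3 listed genes on the opposite strand, and the pseudogene TMEM198B so overlaps MMP19. Whether counting used the strand is unknown from the labels, and reads of these overlaps cannot be assigned with certainty.

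Both stromelysin genes are close copies of each other. The coding sequences of MMP10 (1431 bases) and MMP3 (1434 bases) were 85.1% identical, against 66.004% for MMP1 with MMP3, 65.6% for MMP1 with MMP10 and 64.0% for MMP14 with MMP15. The longest run of identical bases in the MMP10 and MMP3 transcripts had 96 bases, at coding positions 398 to 493 of MMP10 and 401 to 496 of MMP3, counted from the start codon. It is shown because a read that falls within it fits both genes, and it has no capitals since every base is shared.
MMP10 and MMP3: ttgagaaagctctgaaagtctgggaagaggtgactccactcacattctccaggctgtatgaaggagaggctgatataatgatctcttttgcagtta
Of all stretches of 50 bases in the MMP10 transcript, 3.45% also occurred in MMP3, and 3.00% of those in MMP3 occurred in MMP10. No other pair of members shared such a stretch. The longest run that MMP1 shared with any family transcript, in GENCODE release 29, had 19 bases (with MMP7). Read length and the handling of reads that fit several genes are not given, so a small exchange of reads between MMP10 and MMP3 was not tested.

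Promoter windows were at hand for 3 of the 6 members in the RefSeq table (GRCh38.p14): MMP10, MMP14 and MMP15. MMP1, MMP3 and MMP19 had no entry. Each window holds 300 bases on the gene's strand, with 250 before the start of the gene and 50 from the start onward. They are printed because MMP10 was higher and MMP14 and MMP15 were lower in fasting medium. Capitals mark 2 kinds of match, TGANTCA, the core to which AP-1 dimers can bind, and TATAAA, the core of a TATA box.
MMP10, chr11:102780579-102780878, minus strand: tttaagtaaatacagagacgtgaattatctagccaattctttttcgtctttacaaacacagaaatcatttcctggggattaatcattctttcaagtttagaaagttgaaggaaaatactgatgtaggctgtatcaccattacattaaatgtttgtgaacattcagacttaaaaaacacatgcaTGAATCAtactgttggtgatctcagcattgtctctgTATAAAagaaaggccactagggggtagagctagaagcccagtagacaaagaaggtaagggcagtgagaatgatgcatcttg
MMP14, chr14:22836335-22836634, plus strand: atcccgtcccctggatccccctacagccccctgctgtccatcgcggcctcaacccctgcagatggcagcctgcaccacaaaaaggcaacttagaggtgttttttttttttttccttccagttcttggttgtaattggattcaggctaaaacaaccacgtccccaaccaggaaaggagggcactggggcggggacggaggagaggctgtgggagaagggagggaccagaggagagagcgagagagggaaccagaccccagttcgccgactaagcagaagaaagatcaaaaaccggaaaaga
MMP15, chr16:58025504-58025803, plus strand: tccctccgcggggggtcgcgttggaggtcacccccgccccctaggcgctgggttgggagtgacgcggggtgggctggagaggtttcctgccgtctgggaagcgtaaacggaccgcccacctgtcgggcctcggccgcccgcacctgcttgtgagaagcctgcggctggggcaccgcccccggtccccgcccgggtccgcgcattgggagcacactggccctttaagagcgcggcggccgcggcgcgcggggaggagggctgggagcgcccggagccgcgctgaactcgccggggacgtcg
The MMP10 window held TGAATCA from 67 to 61 bases before the start and TATAAA from 31 to 26 bases before it, both on the gene's strand and not overlapping. Neither motif occurred on either strand of the MMP14 and MMP15 windows. Of 27305 such windows of genes in the table, 7.76% held TGANTCA, 11.95% held TATAAA and 1.35% held both. TGACTCA, the narrower AP-1 core contained in TGANTCA (4.92% of windows), and GGAAGT, an ETS core (23.2%), were found in none of the 3 windows. The 3 windows also differed in base composition, with 36.3% G and C in MMP10, 55.0% in MMP14 and 75.3% in MMP15, against a median of 58.3% over all windows. These matches describe letters and not bound sites.

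Values are normalized counts, that is, the reads of a gene divided by the authors' size factor for the library, from 0.727 to 1.41. Whole reads could be recovered for every gene, and reads in the listed genes numbered between 4017618 and 5602177 per library. Total depth is unknown. A log2 fold change is the fasting mean of log2(normalized count + 1) less the control mean, and the added 1 shrinks it where reads are few. Intervals in square brackets are exact 95% intervals for the ratio of pooled reads per size factor, conditional on their sum, and cover counting error only. Fasting replicate 3 stands apart from the other fasting libraries by transcript length, as given below. Of 10 intestinal epithelial markers the table lists KRT18 alone, so the epithelial label could be checked no further. Among markers of other cells, CD14 was the 1 listed of 7 for macrophages, and none of 7 for fibroblasts or 5 for endothelium was listed. Both listed markers were higher in fasting medium, as the secreted MMP genes were. CD14 lay between 0.71 and 0.986 normalized counts in control and between 7.62 and 8.37 in fasting libraries. KRT18 lay between 656 and 757 in control and between 1959 and 3402 in fasting libraries, and the part of either in the results was not tested. The labels do not tell if libraries of one medium came from different cultures. The p-values therefore refer to the spread between libraries, which may be technical.

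In fasting medium the 4 listed secreted enzymes were higher and both listed membrane-type enzymes were lower, where limma called 49.7% of all listed genes higher and 44.6% lower. The secreted 4 differed by at least 2 log2 units, as did 7.6% of listed genes in that direction, and since the choice of members used this contrast nothing is read from these shares. In all 6 genes the 3 values of one medium lay beyond those of the other, as in 100% of listed genes, so nothing is read from that count. RNA of whole cultures was measured, so more expressing cells and more RNA per cell cannot be told apart.

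MMP1, the interstitial collagenase, cuts the triple helix of fibrillar collagens. It stood at 13.8, 15.6 and 14.5 normalized counts in control replicates 1 to 3 and at 302, 339 and 400.1 in fasting replicates 1 to 3. The controls rest on 14, 22 and 20 reads. Their SD was 6.26% of the mean, below the 23.1% that counting error alone gives, so nothing is read from their closeness. The lowest fasting library was 19.3 times the highest control. Group means were 14.7 ± 0.92 and 347 ± 49.5 (SD, n = 3 each), and the log2 fold change was 4.47 (SE 0.15). Behind these values stand 56 reads in control and 853 in fasting medium, a ratio of 23.4 [17.9 to 31.3]. Of the listed genes, 16 had a higher log2 fold change.

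MMP10, or stromelysin-2, degrades proteoglycans and other noncollagenous matrix proteins and can activate collagenase precursors. Control libraries held 1.97, 5.68 and 3.63 normalized counts, which are 2, 8 and 5 reads. Fasting libraries held 159, 163 and 182 normalized counts from 125, 156 and 132 reads. The SD of the fasting libraries (168 ± 12.1) was 7.21% of the mean, below the 8.52% that counting error alone gives. Nothing is thus read from their closeness, and the controls (3.76 ± 1.86) rest on few reads. The log2 fold change was 5.22 (SE 0.29), the highest of the 6 members, and 7 listed genes had a higher one. The authors' deposited table gives 5.48, the log2 ratio of the group means. Pooled reads, 15 against 413, gave a ratio of 42.3 [25.4 to 76.3], and this interval overlaps that of MMP1.

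MMP3, or stromelysin-1, has the same range of substrates and is a known activator of the MMP1 precursor. It was near the limit of detection in control medium, with 1, 1 and 2 reads (0.986, 0.71 and 1.45 normalized counts). In fasting medium it reached 19.0, 30.3 and 30.3 normalized counts from 15, 29 and 22 reads. Replicate 1 was the lowest of the fasting libraries but still 13.1 times the highest control. The log2 fold change was 3.73 (SE 0.30), against 4.66 in the authors' deposited table, and the pooled ratio was 25.4 [9.45 to 95.8]. The control level of this gene (1.05 ± 0.38) is near the added 1, and with 0.5 added instead the log2 fold change was 4.12. On the scale of pooled reads the intervals of MMP1, MMP10 and MMP3 overlapped one another.

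MMP19, a secreted enzyme that cuts basement membrane proteins, differed less. It had 3.94, 2.84 and 3.63 normalized counts in control and 12.7, 16.7 and 26.1 in fasting libraries, from 13 and 45 reads in all. The fasting libraries were spread wider than the controls (18.5 ± 6.9 against 3.47 ± 0.57), with replicate 3 the highest. Its log2 fold change was 2.08 (SE 0.31), and the pooled ratio was 5.32 [2.82 to 10.7], an interval below those of MMP1 and MMP10 and overlapping that of MMP3.

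MMP14, or membrane-type 1 MMP, cuts collagen at the cell surface and activates the precursor of MMP2. It was the most abundant member per length in both media. Control libraries held 1399, 1533 and 1467 normalized counts, and fasting libraries held 983, 922 and 1015. The log2 fold change was -0.59 (SE 0.08), with 1467 ± 66.8 in control and 973 ± 47.4 in fasting medium. With 5596 and 2393 reads this was the most precise ratio of the 6, 0.657 [0.626 to 0.690].

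MMP15, or membrane-type 2 MMP, is a close relative of MMP14. The deposited domain annotation gives these 2 members alone of the listed genes a C-terminal domain of matrix metallopeptidases. MMP15 held 368, 379 and 331 normalized counts in control and 133, 144 and 183 in fasting libraries. Replicate 3 was the highest of the fasting libraries and the lowest of the controls, and the groups stayed apart. The log2 fold change was -1.23 (SE 0.14), and the pooled ratio of 0.424 [0.377 to 0.476] lay below that of MMP14.

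**Figure D1:**
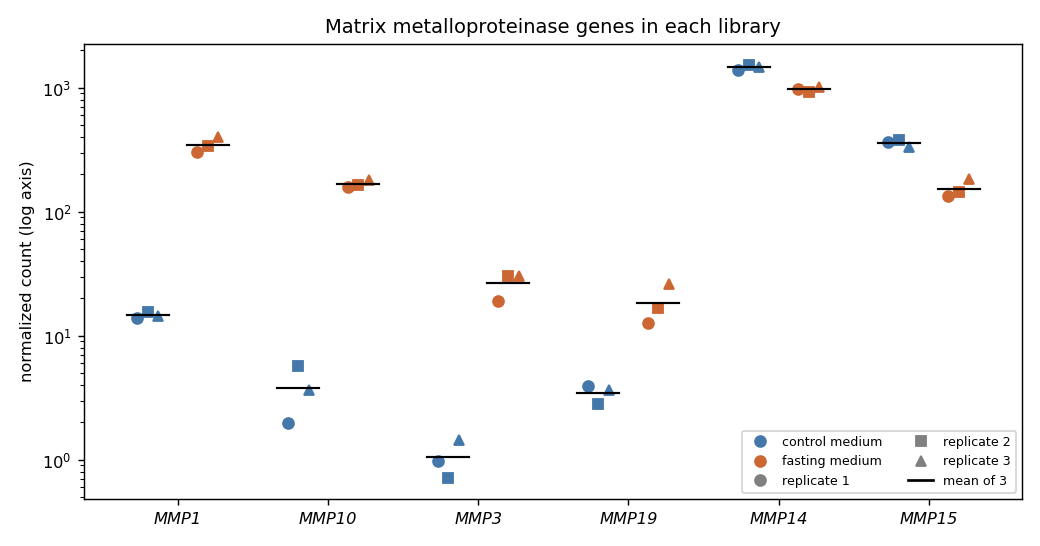
Normalized count (log axis) of each MMP gene in the 3 control and 3 fasting libraries, with the mean of each group as a line. MMP1, MMP10, MMP3 and MMP19 are higher and MMP14 and MMP15 lower in fasting medium, and MMP10 and MMP3 start from at most 5.68 and 1.45 normalized counts in control medium.

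Levels of different genes were compared per kilobase of the longest coding transcript. In control medium MMP14 had 393 ± 17.9 normalized counts per kb, MMP15 84.5 ± 5.8, MMP1 7.44 ± 0.47, MMP10 2.14 ± 1.06, MMP19 1.56 ± 0.26 and MMP3 0.521 ± 0.186 (SD, n = 3 each). Of neighbours in that order, only MMP10 and MMP19 overlapped between libraries. In fasting medium the order was MMP14 with 261 ± 12.7, MMP1 with 176 ± 25.1, MMP10 with 95.4 ± 6.9, MMP15 with 36.1 ± 6.1, MMP3 with 13.2 ± 3.2 and MMP19 with 8.31 ± 3.09. There only MMP3 and MMP19 overlapped between libraries. Per kb MMP1 and MMP10 thus stood below MMP15 in control and above it in fasting medium. For MMP10 this depends on the division by length. Its undivided fasting counts (159, 163 and 182) overlapped those of MMP15 (133, 144 and 183).

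The balance of secreted to membrane-type transcripts differed between the media. Summed per kb, the 4 secreted members made up 2.20%, 2.495% and 2.44% of the 6 genes in control libraries and 46.8%, 50.6% and 51.4% in fasting libraries. The sum of the secreted members went from 11.7 ± 1.2 to 293 ± 37.5 normalized counts per kb, and that of the membrane-type members from 478 ± 19.96 to 297 ± 17.1. MMP14 exceeded MMP1 per kb 53.5, 51.8 and 53.3 times in control replicates 1 to 3, but 1.72, 1.44 and 1.34 times in fasting replicates 1 to 3. Shares within a library do not depend on its size factor, but they do depend on the transcript lengths used. Within the secreted sum MMP1 held 64.0% ± 3.0 in control and 60.03% ± 0.87 in fasting medium, and MMP3 held 4.52% ± 1.69 and 4.46% ± 0.79. The share of MMP10 was higher in fasting medium (17.9% ± 7.2 against 32.7% ± 2.0), and that of MMP19 was lower (13.6% ± 3.5 against 2.78% ± 0.67), with no overlap between the media for either. These control shares rest on 2, 8 and 5 reads of MMP10 and 4, 4 and 5 of MMP19. The pooled-read intervals of MMP10 and MMP1 overlapped, so nothing is read from the lack of overlap for MMP10. The interval of MMP19 lay below those of MMP1 and MMP10. MMP1 exceeded MMP10 per kb 6.25, 2.45 and 3.57 times in control and 1.70, 1.85 and 1.97 times in fasting libraries, where the control ratios rest on 2 to 8 reads of MMP10.

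**Figure D2:**
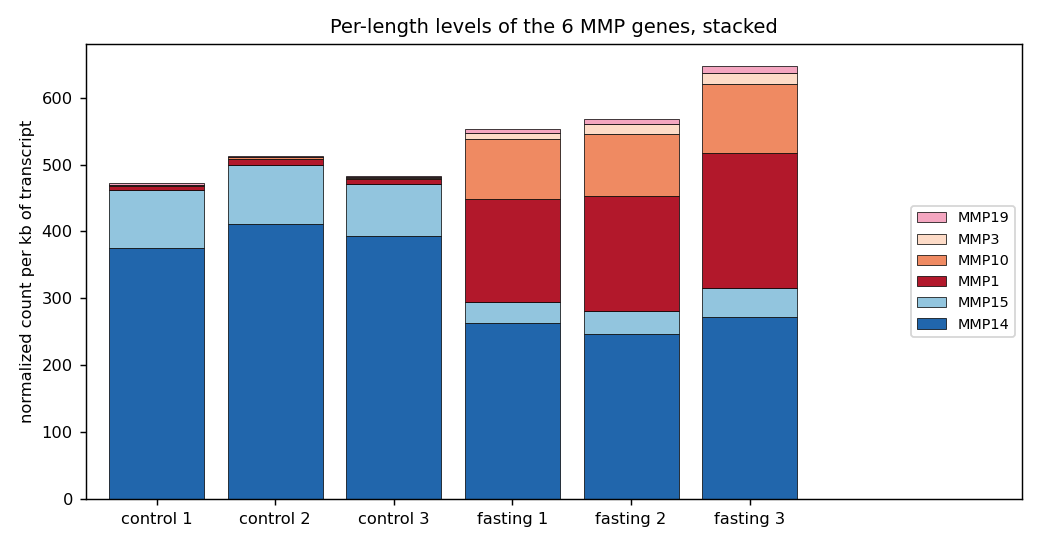
Normalized counts per kb of transcript of the 6 MMP genes, stacked for each library, membrane-type genes in blue and secreted genes in red and pink. The secreted genes take 2.20% to 2.495% of a control bar and 46.8% to 51.4% of a fasting bar.

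Fasting replicate 3 was the highest fasting library for 5 of the 6 members, all except MMP3, where replicate 2 was higher by a small margin. In that library short transcripts lay above and long ones below the other fasting libraries (Spearman correlation with length of -0.72 across 2886 genes, which are not independent replicates). Its difference from the mean of fasting replicates 1 and 2 was 0.32 log2 units for MMP1 (transcript of 1970 bases), and the median of 182 listed genes of like length (within 0.1 log2 units of length) was 0.37. For MMP3 it was 0.32 against 0.36, and for MMP10 it was 0.17 against 0.41, below the middle range of genes of its length (0.28 to 0.53, first to last quartile). MMP14 had 0.09 against -0.01. MMP19 with 0.80 against 0.31 and MMP15 with 0.40 against -0.12 lay above the middle range of theirs (0.18 to 0.43 and -0.33 to 0.06). The genes of like length had at least 100 normalized counts in fasting or control medium. MMP19 and MMP3 have far fewer, and counting error alone gives their fasting libraries an SD of 25.8% and 21.3% of the mean. Nothing is therefore read from the place of MMP19 or MMP3 among genes of their length. Without fasting replicate 3 the log2 fold changes were 4.36 for MMP1, 5.16 for MMP10, 3.63 for MMP3, 1.81 for MMP19, -0.62 for MMP14 and -1.36 for MMP15.

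**Figure D3:**
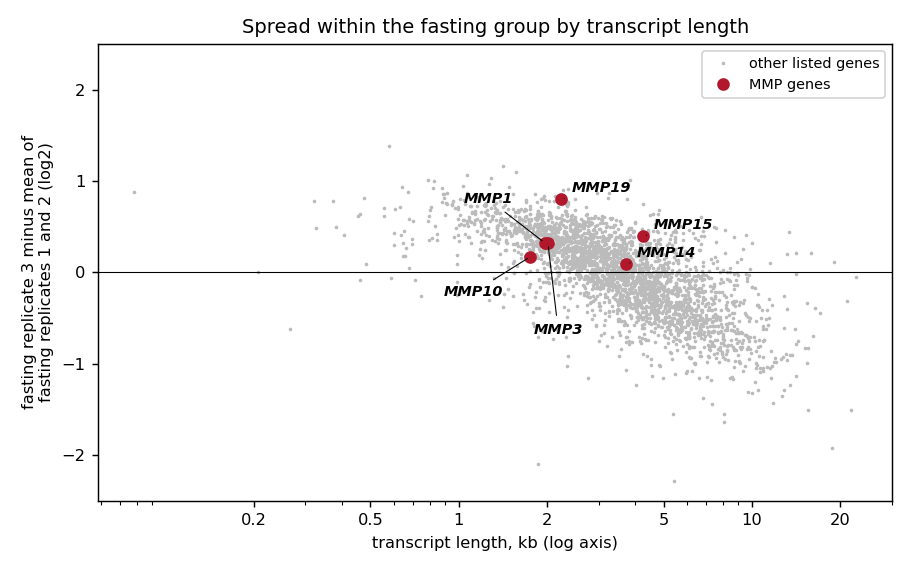
Difference of fasting replicate 3 from the mean of fasting replicates 1 and 2 (log2) against transcript length (log axis), for MMP genes in red and other listed genes in grey (genes at 100 or more normalized counts in one medium). The cloud slopes downward with length, and MMP1 and MMP3 lie within it while MMP19 and MMP15 lie above its middle and MMP10 below it.

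Genes whose values over the 6 libraries were most like those of MMP1 and MMP10 were found by the Euclidean distance between log2 values minus each gene's control mean, among 2896 genes with at least 100 normalized counts in one group. For MMP1 they were the growth arrest gene GADD45B (distance 0.34), FOS (0.44), a subunit of AP-1, the chaperone gene HSPA1A (0.62), the stress transcription factor gene ATF3 (0.70) and EID3 (0.90). GADD45B stood at 98.6, 102 and 111 normalized counts in control and 1857, 1952 and 2988 in fasting libraries. HSPA1A may share reads with the near-identical HSPA1B, which makes its level uncertain. For MMP10 the nearest was RPLP0P2 (0.22), a ribosomal protein pseudogene whose reads may be shared with its parent gene. Then came HMOX1 (0.94), which encodes heme oxygenase-1, CHAC1 (0.97), which degrades glutathione, ZFAND2A (0.98) and the cystine transporter gene SLC7A11 (1.16). RPLP0P2 had 1.97, 4.97 and 2.91 normalized counts in control libraries and 149, 149 and 180.1 in fasting libraries. RPLP0P2, ATF3, EID3, CHAC1, ZFAND2A and SLC7A11 reached the minimum of 100 in fasting medium alone, as did MMP1 and MMP10. These genes entered the comparison only through the medium where they are high, so nothing is read from their being high there. The control values of RPLP0P2 and MMP10 rest on few reads, so nothing is read from their order. The distance is mostly set by the size of the difference between the media, so it gives likeness of pattern over 6 libraries and nothing more.

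**Figure D4:**
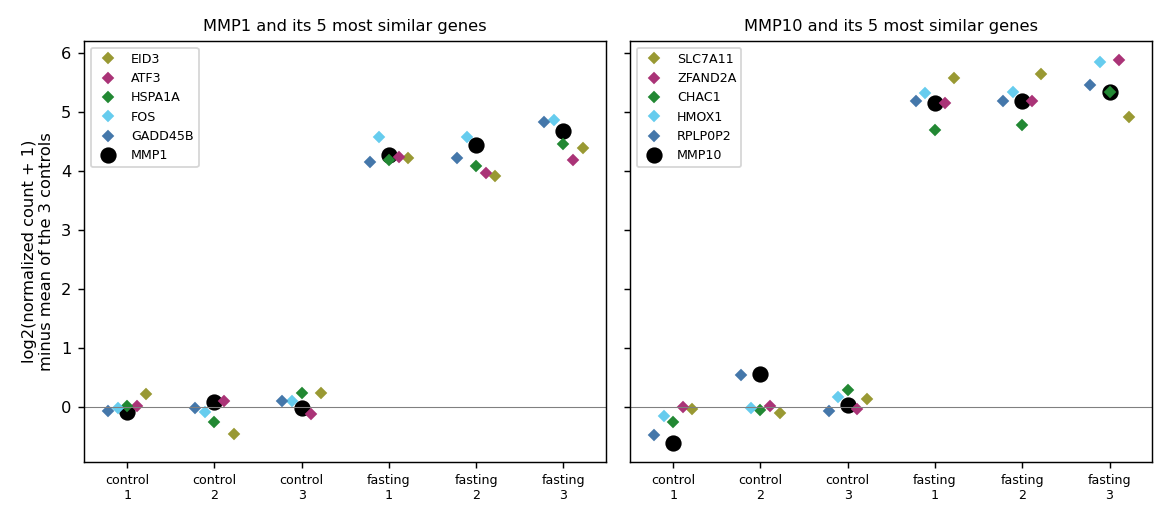
Log2(normalized count + 1) minus the mean of the 3 controls, per library, for MMP1 (left) and MMP10 (right) in black with the 5 most similar genes of each in colour. The nearest genes, GADD45B at a distance of 0.34 and RPLP0P2 at 0.22, lie close to the black points in each library.

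Genes that act with MMPs were taken from 11 lists with 152 members in all. Of these members 30 were listed, where 11.8% of the 29845 genes that the authors tested were listed. The lists were chosen with earlier results known, so nothing is read from the number listed. Of the 30, 24 rose and 6 fell (limma with Benjamini-Hochberg adjustment over 29845 genes, adjusted p under 0.05), with a median log2 fold change of 1.32. Among all listed genes 94.3% passed, 49.7% as higher and 44.6% as lower, with a median of 0.53. The authors had called every listed gene on the same 6 libraries, so passing again was largely fixed in advance. The limma p-values of listed genes, here and below, therefore give no independent support. Leaving out fasting replicate 3 gave 24 and 6 as well, and leaving out any other single library gave 19 or 20 higher and 4 to 6 lower. Over all listed genes, leaving out fasting replicate 3 gave 1762 higher and 1747 lower. Any other single library left out gave 1464 to 1606 higher and 1160 to 1469 lower over all listed genes. With counts scaled to the total reads of the table, 13 of the list members were higher and 6 lower, as 862 of all listed genes were higher and 1708 lower, against 1745 and 1567 with the authors' scaling.

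AP-1 is a dimer of FOS, JUN and ATF family proteins and is a classical activator of collagenase and stromelysin genes. The table lists 8 of 14 subunit genes, or 57.1%, against 11.8% of the genes that the authors tested. All 8 rose (median log2 fold change 1.62), while 6 of the 8 did with total-read scaling or without control replicate 1, and 7 did without control replicate 3 or without fasting replicate 1. Over all listed genes fewer were higher in these fits too (862, 1488, 1464 and 1606, in that order, against 1745). FOS stood at 110.5, 104 and 119 normalized counts in control and 2684, 2676 and 3264 in fasting libraries, a rise of 4.67 log2 units (limma, adjusted p = 2.16e-06). ATF3 rose by 4.13 and FOSB by 2.36. The other 5, JDP2, FOSL2, BATF2, JUND and JUNB, rose by 0.87 to 1.76. JUN and FOSL1 were not listed. Whether the 8 listed subunits acted on the MMP genes was not tested.

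ETS factors often act beside AP-1 at MMP promoters. Of 15 genes 5 were listed, of which 4 rose and 1 fell (median 0.66). ETS2 went from 402 ± 5.7 to 787 ± 26.8 normalized counts, a rise of 0.97 log2 units (limma, adjusted p = 2.44e-04). GABPA rose by 0.93, ETV5 by 0.66 and ELF1 by 0.66, while ETV1 fell by 1.34. With total-read scaling ETS2 alone of the risers passed. ELF1 was no longer called when any one library but fasting replicate 3 was left out (limma, adjusted p = 0.0797 to 0.104).

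Among 17 inducers of MMP genes, such as cytokines and growth factors, 3 were listed and 3 rose (median 1.52). PTGS2, which encodes the prostaglandin-forming cyclooxygenase-2, had 11.8, 7.10 and 12.4 normalized counts in control and 397, 416 and 305 in fasting libraries, a log2 fold change of 5.05. HBEGF, a ligand of the epidermal growth factor receptor, rose by 1.52, from 222 ± 12.9 to 641 ± 62.2. PDGFA, a platelet-derived growth factor chain, rose by 1.36.

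Of 7 MMP inhibitors TIMP2 was the one listed. TIMP2 blocks most MMPs and also takes part in the activation of MMP2 by MMP14. It had 89.7, 79.6 and 77.0 normalized counts in control and 43.2, 36.6 and 23.4 in fasting libraries, and fell by 1.27 log2 units (limma, adjusted p = 0.0082). Fasting replicate 3 was the lowest, and without it the log2 fold change was -1.03. TIMP1, TIMP3 and RECK were not listed.

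Plasmin is a common activator of MMP precursors. Of 10 genes of plasminogen activation 2 were listed, and both rose. SERPINE2, an inhibitor of plasminogen activators, rose by 1.34 log2 units, from 17.1 ± 2.3 to 45.8 ± 12.7 normalized counts. With total-read scaling it did not pass (limma, adjusted p = 0.0688), and it passed in the other 15 alternatives. The urokinase genes PLAU and PLAUR were not listed. Of 7 proprotein convertases, which cleave the precursors of membrane-type MMPs, PCSK7 was listed and fell by 0.71 (adjusted p = 0.0394), a call lost in 5 of 16 alternatives (adjusted p from 4.79e-05 to 0.237). FURIN was not listed.

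Related protease families had 1 of 13 ADAM, 1 of 19 ADAMTS and 0 of 6 astacin genes listed. These are 7.69%, 5.26% and 0%, against 11.8% of the genes that the authors tested. With counts this small nothing is read from these shares. Of the 13 ADAM genes looked for, the one listed was ADAM17, which sheds growth factors and tumour necrosis factor from the cell surface. ADAM22 was not among the 13 but is listed, and it fell by 1.03 log2 units (limma, adjusted p = 0.00156). ADAM17 rose from 697 ± 44.6 to 1219.5 ± 328 normalized counts (log2 fold change 0.77, limma, adjusted p = 0.0443). Its call was lost in 6 of 16 alternatives, 5 of them with one library left out, any but fasting replicate 3 (limma, adjusted p = 0.117 to 0.176). Fasting replicate 3 held 842 normalized counts of it against 1433 and 1384. Of 19 ADAMTS genes ADAMTS16 was listed, with a log2 fold change of 1.58 (adjusted p = 0.022, lost in 5 of 16 alternatives). None of 6 astacin proteases was listed.

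Matrix proteins on which these enzymes act moved both ways. Of 36 genes 6 were listed, of which 4 rose and 2 fell (median 1.74). The laminin chain gene LAMB3 rose by 1.90 log2 units, from 16862 ± 1566 to 62762 ± 4585 normalized counts. LAMA1, another laminin chain gene, rose by 1.58 (0.0521 as adjusted p with total-read scaling), and LAMA5 fell by 1.55. THBS1, the matricellular protein thrombospondin-1, rose by 4.42, from 4.60 ± 1.18 to 121 ± 33.1. COL18A1, a basement membrane collagen, fell by 1.29 and did not pass with the trend with transcript length removed (adjusted p = 0.0709). Fibrillar collagen genes and FN1 were not listed. Of 8 collagen receptors 2 were listed. ITGA1 fell by 0.89, a call lost without control replicate 3 (adjusted p = 0.0581) and with the length trend removed. DDR2 rose by 1.26 (adjusted p = 0.0326), a call lost in 7 of 16 alternatives, with fasting replicate 3 at 52.3 normalized counts against 109 and 113.

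**Figure D5:**
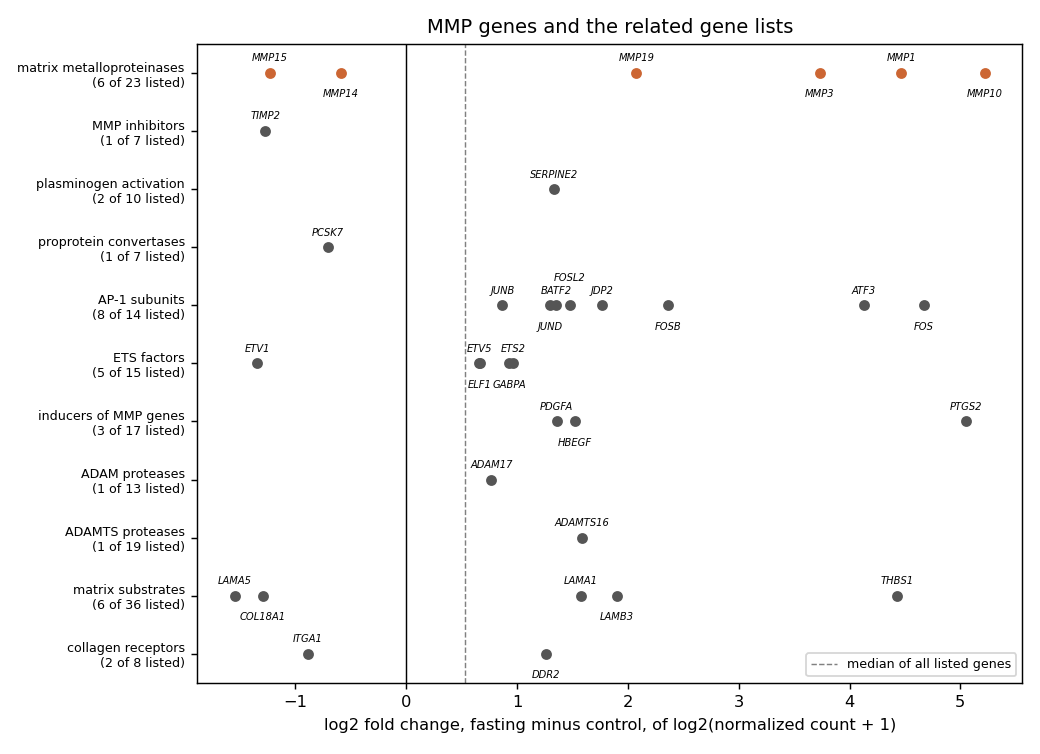
Log2 fold change (fasting minus control) of the 6 MMP genes and of members of 10 related lists that are reported here, one row a list, with the median of all listed genes (0.53) as a dashed line. AP-1 subunits all lie to the right of 0, and TIMP2, the one listed inhibitor, lies at -1.27.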

How the data were processed

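The deposited table names no unit for its 6 library columns. From the values they are a signal, reads over one size factor for each library, as left by the authors; all values were whole multiples of 1 read within 0.01 read. The table also holds the authors' deposited log2 fold changes, p-values and adjusted p-values (highest 0.04999). DESeq 1.10.1, HTSeq 0.6.1 and UMI-tools 1.0.0 were used, per the submitters' processing notes. The aligner, genome build and gene annotation: not given in the sources used here. Groups came from the treatment label. The test was limma 3.58.1 (R 4.3.3; trend, empirical Bayes, two-sided) on log2(normalized count + 1) over all 3511 genes, Benjamini-Hochberg adjustment over 29845 genes with unlisted ones counted as not passing, threshold 0.05. Moderation was estimated on listed genes, which were selected for their difference. edgeR 4.0.16 and DESeq2 1.42.0 on recovered reads, other pseudocounts, filters and scalings, a replicate block, a length correction and leaving out each library were alternatives; the fit was tested on simulated data. Members and lists were chosen with earlier results of these data known. Named were all MMP genes, all listed members of lists with up to 6 of them (otherwise the 3 largest changes each way), the 5 most similar genes and the 3 nearest neighbours of MMP1 and MMP10 on each side; listed neighbours of the other members, MMP12, JDP2, FOSL2, BATF2, JUND and JUNB are named besides. Some list members are not reported here. Symbols matched for 3467 and lengths (GENCODE 29) for 3465 genes.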

Additional observations from a re-analysis of the deposited data

How the results depend on the processing

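All 6 MMP genes kept their direction in each of 15 settings, the main one among them. The groups do not overlap in these genes, so leaving out a library or changing the pseudocount could not change a direction. The replicate block leaves the log2 fold changes as they are. Total-read scaling moved all genes by a median of -0.48 and RLE scaling by 0.20 log2 units. Total-read scaling gave 4.005 for MMP1, 4.80 for MMP10, 3.38 for MMP3, 1.66 for MMP19, -1.07 for MMP14 and -1.71 for MMP15, with 862 genes and 13 list members higher. RLE scaling gave 4.66 for MMP1, -0.39 for MMP14 and -1.04 for MMP15. A pseudocount of 5 gave 4.15 for MMP1, 4.32 for MMP10, 2.36 for MMP3 and 1.44 for MMP19, and one of 0.5 gave 4.12 for MMP3. MMP3 was at 4.51 by edgeR and 4.66 by DESeq2. Without the length trend MMP1 was at 4.16. Leaving out each library gave 4.36 to 4.56 for MMP1, 4.92 to 5.505 for MMP10, 3.61 to 3.95 for MMP3, 1.81 to 2.30 for MMP19, -0.63 to -0.55 for MMP14 and -1.36 to -1.14 for MMP15. With the replicate block 1715 genes were higher and 1578 lower, and 23 and 5 list members; PCSK7 and DDR2 lost their calls. Same-numbered libraries did not deviate together (correlations of deviations over 2897 genes 0.0315, 0.0265 and 0.0772), so the numbers are not taken to pair them. Of 25 list genes taken by the rule for named genes 13 kept their call in all 16 alternatives. The like count over all listed genes was not taken, so nothing is read from this count. Few reads in control medium (4 of MMP3, 13 of MMP19, 15 of MMP10) limit those ratios.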

Other observations

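By the deposited domain annotation 12 listed genes carry the term for the metallopeptidase catalytic superfamily, 5 MMP genes and 7 others; the entry of MMP3 lacks it. Among the other 7, picked by this term after their values were seen, are ADAM17 and ADAMTS16. PAPPA2, a protease of insulin-like growth factor binding proteins, had no read in any control library and 7.62, 12.6 and 6.88 normalized counts in fasting replicates 1 to 3. The cell surface protein gene ADAM22 fell by 1.03 log2 units (limma, adjusted p = 0.00156). The peptidase genes NLN, THOP1 (ENSG00000172009, under another name in the deposited table) and MIPEP fell, with log2 fold changes of -0.88, -0.63 and -0.61 (limma, adjusted p = 0.0021, 0.0139 and 0.00283).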
